A study of Mus musculus with 58 samples.

Results

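The 7 genes of MHC class II antigen presentation described here were followed through every library of the series: H2-Aa, H2-Ab1, H2-Eb1, Cd74, H2-DMa, H2-DMb1 and Ciita. They were chosen by name, and all 7 of 7 were found among the 25307 genes of the deposited table. The libraries came from cells isolated from the livers of 129SV mice, 20 of Kupffer cells (KC, the resident macrophages of the liver), 19 of monocyte-derived macrophages (MoMF) and 19 of monocytes (Mo). Each cell type was taken from 5 groups of mice. These were controls at 6 weeks (Sham6w), mice at the onset of cholestatic injury 2 weeks after common bile duct ligation (CBDL2w), mice with advanced cholestatic injury at 6 weeks (CBDL6w), mice with acute colitis (DSS, dextran sulfate sodium) and mice with advanced cholestatic injury and acute colitis (CBDL+DSS). There were 4 libraries in each of the 15 cell type and injury groups, except 3 each for Sham6w MoMF and Sham6w Mo. Some replicates had to be pooled, per the design text, and 9 labels join several replicate numbers. No label names a genotype other than the strain, an age, a sex, the gate that defined the cells or the time of the colitis groups. The controls stand at 6 weeks only, so CBDL2w differs from them in time as well as in injury.

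MHC class II molecules display peptides from endocytosed material to CD4+ T cells. An alpha and a beta chain pair in the endoplasmic reticulum around the invariant chain, which blocks the groove and directs the complex to endosomes, where proteases trim it and H2-DM exchanges its last fragment for an antigenic peptide. Transcription of the alpha and beta chains, the invariant chain and H2-DM depends on the coactivator CIITA. It does not bind DNA itself but docks on factors that sit on the conserved X and Y boxes of class II promoters. Interferon-gamma induces Ciita, in part through Irf1. Dendritic cells and B cells carry class II constitutively, macrophages and monocytes to varying degrees, and in the liver Kupffer cells, sinusoidal endothelium and dendritic cells can all present.

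H2-Aa encodes the alpha chain and H2-Ab1 the beta chain of the mouse I-A molecule, and H2-Eb1 encodes the beta chain of I-E. On GRCm38 they lie together on chromosome 17, H2-Aa (ENSMUSG00000036594) at 34282744 to 34287823 on the minus strand, H2-Ab1 (ENSMUSG00000073421) at 34257689 to 34269419 on the plus strand and H2-Eb1 (ENSMUSG00000060586) at 34305867 to 34316674 on the plus strand. H2-DMa (ENSMUSG00000037649, 34119541 to 34139101) and H2-DMb1 (ENSMUSG00000079547, 34153072 to 34160230) encode the chains of the peptide exchanger and stand on the plus strand of the same chromosome. Ciita (ENSMUSG00000022504) is on chromosome 16 at 10480059 to 10528418, plus strand. H2-Ea, a further class II chain, was not found by name in the deposited table. Whether these cells make an I-E molecule was not measured, so values of H2-Eb1 stand for its transcript alone and not for I-E.

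The promoters of 3 members and of H2-Ob, a further class II chain, are shown because they hold X-like and Y-like motifs in 1 arrangement. RefSeq windows of GRCm38.p6, 250 bases before to 50 after each gene's start, were searched on both strands for an X-like motif, CTNGNAAC, and a Y-like motif, TGATTGG; the motifs were chosen after the windows had been read. Windows were held for H2-Aa, H2-Eb1, H2-DMb1 and H2-DMa (2 windows), and for none of H2-Ab1, Cd74 and Ciita. In H2-Aa, H2-Eb1 and H2-DMb1 both motifs lay in the same order on the gene's strand, and in neither window of H2-DMa were these letters found. Of 4 further class II chains with a window, H2-Ob held them in this arrangement, H2-Eb2 held both in another, and H2-Oa and H2-DMb2 held the Y-like motif alone. Capitals mark the X-like and then the Y-like motif.
H2-Aa, chr17:34287859-34287915, minus strand: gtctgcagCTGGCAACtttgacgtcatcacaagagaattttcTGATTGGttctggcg
H2-Eb1, chr17:34305765-34305820, plus strand: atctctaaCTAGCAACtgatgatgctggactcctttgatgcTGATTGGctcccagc
H2-DMb1, chr17:34153086-34153142, plus strand: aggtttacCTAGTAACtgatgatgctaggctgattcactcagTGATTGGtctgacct
H2-Ob, chr17:34238807-34238860, plus strand: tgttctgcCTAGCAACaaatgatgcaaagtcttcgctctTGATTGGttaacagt
The X-like motif began 84, 94, 97 and 90 bases before the RefSeq start of H2-Aa, H2-Eb1, H2-DMb1 and H2-Ob, and the Y-like motif followed 34, 33, 34 and 31 bases further on. For H2-DMb1 the RefSeq start lies downstream of the annotated start given above, so the stretch shown falls inside the span given for that gene. Of 32841 promoter windows, 13.2% held the X-like motif, 7.82% the Y-like motif and 0.0974% (32 windows) both in this order with their starts 15 to 50 bases apart. A match of letters is a description of the sequence and was not measured as binding.

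Read totals ran from 118687 to 521954 per library, and 8885 to 13360 genes were detected. Values are normalized counts, gene counts divided by 1 size factor per library. They come from the 3' ends of transcripts, so 1 transcript gives 1 tag whatever its length, but levels are compared here between groups and not between genes. Differences are log2 ± SE from limma on log2(normalized count + 1). A gene passed where the Benjamini-Hochberg adjusted p over all genes tested was under 0.05, and all 7 members passed the filter on low values in every fit. Nothing says that replicates came from separate animals, so p-values measure the spread between these libraries, which may be partly technical. In bulk libraries fewer cells of a type and less RNA per cell cannot be told apart. Markers followed the labels in the main. Summed Kupffer markers stood at 607 to 2582 in KC, against 53.7 to 834 in MoMF and 21.5 to 262 in Mo. Classical monocyte markers stood at 1624 to 3289 in Mo, against 233 to 1407 in MoMF and 60.6 to 518 in KC. Within KC the Kupffer sum was 2293 to 2582 in Sham6w, 847 to 1262 in CBDL2w and 607 to 1302 in CBDL6w. It was 1634 to 2124 in DSS and 1429.8 to 1903 in CBDL+DSS. The classical monocyte sum was 60.6 to 97 in Sham6w KC, 311 to 518 in CBDL2w and 164 to 497 in CBDL6w. The part of these shifts in the KC results was not tested. The Sham6w MoMF libraries went against the labels in part. Their Kupffer markers stood at 206 in replicate 1+2+5 and 785 and 834 in replicates 3 and 4+6, against 53.7 to 496 in the MoMF of injured mice. Plasma cell markers summed to 59.4 to 301 in Sham6w MoMF and 2.76 to 15.1 in CBDL+DSS MoMF. T and natural killer cell markers summed to 24.8 to 90.3 and 1.6 to 9.04. The sums of patrolling monocyte markers overlapped, at 566 to 906 and 538 to 673, but single markers of the list did not move alike. Spn averaged 59.6 in Sham6w and 7.22 in CBDL+DSS MoMF, Ace 31.8 and 2.37, and Cd300e 48.8 and 5.22. Cx3cr1 alone was higher in CBDL+DSS, at 331 against 169. The part of these cells in the MoMF results was not tested. The Sham6w Mo libraries differed from the other Mo in neutrophil markers. These summed to 60.3 to 623 (median 499) in Sham6w Mo, with medians of 59.5 to 165 in the Mo groups of injured mice. Their part in the Mo results was not tested.

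By mean over all 58 libraries H2-Eb1 stood at rank 34, H2-Aa at rank 38, H2-Ab1 at rank 52 and Cd74 at rank 88 of all genes, followed by H2-DMa at 572, H2-DMb1 at 818 and Ciita at 1113. The 6 structural and chaperone genes (all members but Ciita) took on average 0.355 to 0.613% of the total in the 5 groups of Mo, 0.86 to 1.28% in KC and 1 to 1.81% in MoMF. For H2-Aa the order of the 15 group means began with the 4 injured MoMF groups, CBDL+DSS (1598 ± 265, SD, n = 4), CBDL2w (1312 ± 152), DSS (1231 ± 277) and CBDL6w (1144 ± 402). The KC groups and Sham6w MoMF (759 ± 88.9, n = 3) followed in a run from 999.5 ± 319.9 in CBDL6w KC to 711 ± 101 in DSS KC. All 5 Mo groups stood last, from 527 ± 117 in DSS to 321 ± 61.8 in CBDL2w. Of the 14 neighbouring pairs in this order, 12 differed by less than the larger of their SDs; the exceptions were CBDL+DSS over CBDL2w MoMF and DSS KC over DSS Mo. H2-Ab1, H2-Eb1 and Cd74 likewise had 4 MoMF groups among their highest 5 and the 5 Mo groups as their lowest 5. Ciita was ordered otherwise: all 5 MoMF groups came first, led by CBDL6w (95 ± 27.9), and only 2 of its lowest 5 groups were Mo.

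**Figure D1:**
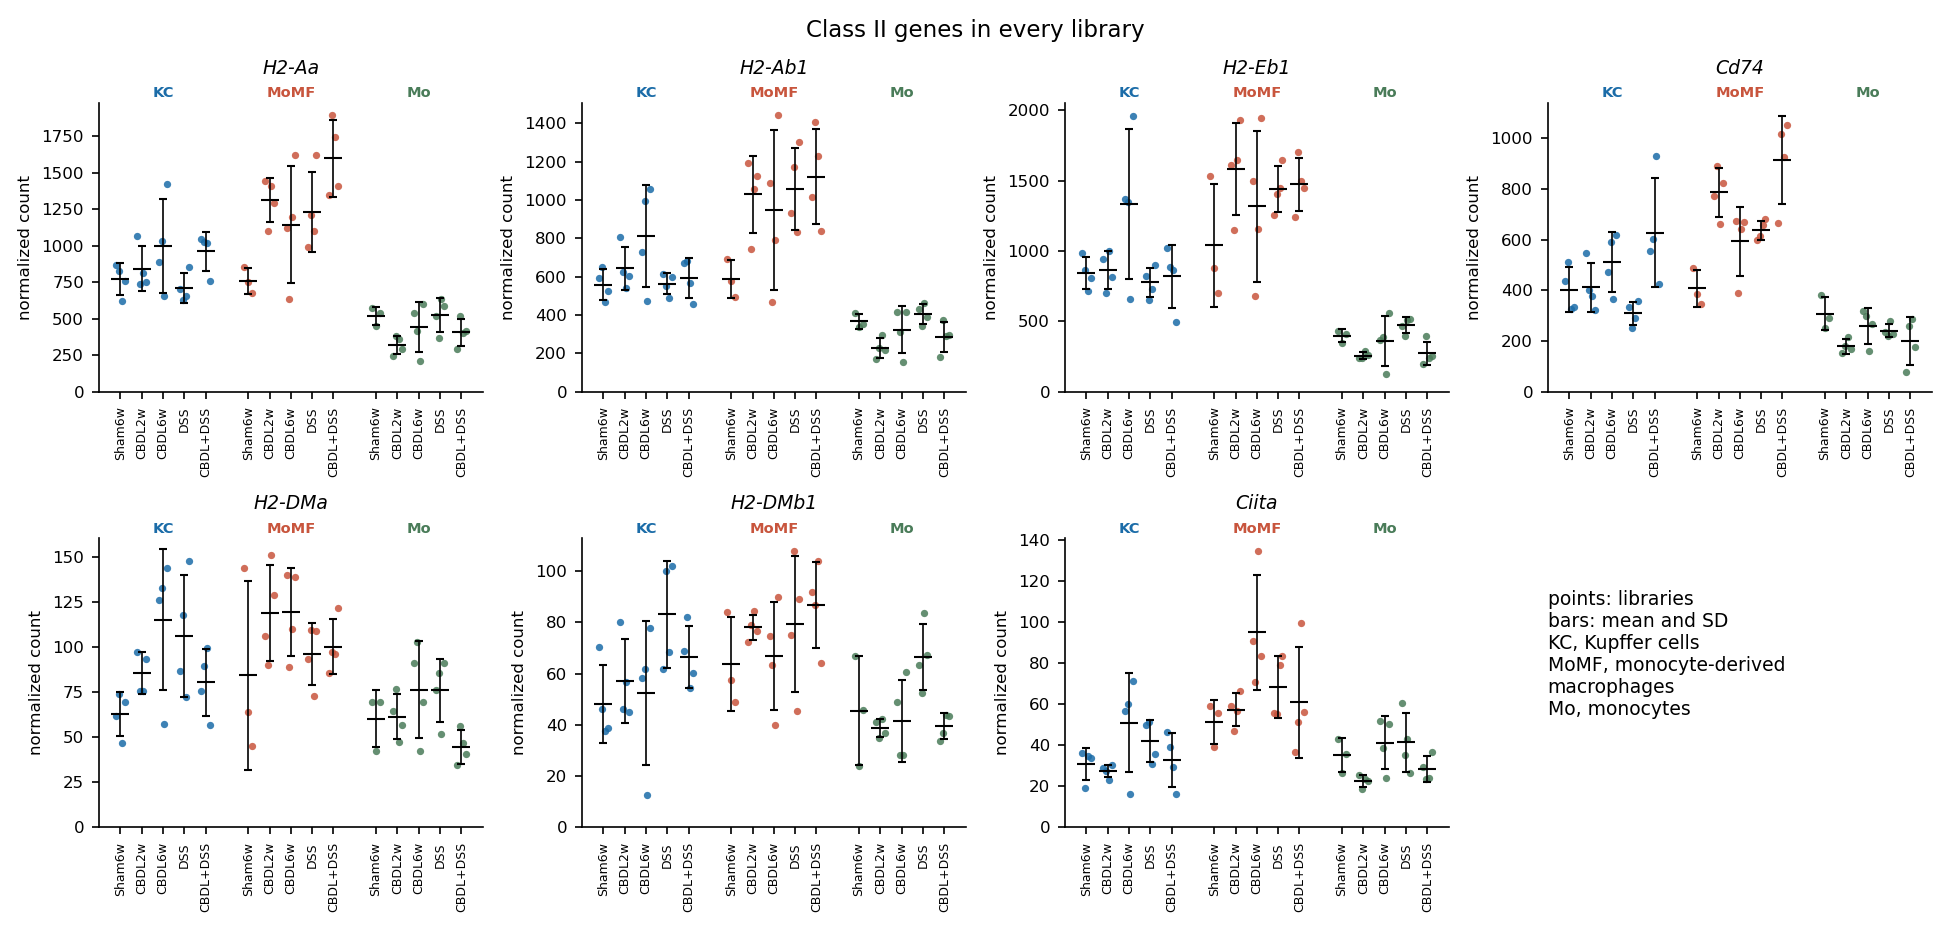
Normalized counts of the 7 class II genes (vertical axes, linear from 0) in each library, grouped by cell type and injury, with the mean and SD of each group. For H2-Aa the 4 injured MoMF groups have the highest means, 1144 to 1598, and the 5 Mo groups the lowest, 321 to 527.

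The largest differences lay between monocytes and the macrophages. In control livers H2-Aa read 852, 752 and 675 in MoMF, 869.8, 828, 620.4 and 758 in KC and 571, 448 and 536 in Mo. The 2 macrophage types overlapped, and every library of both lay above every Mo library. Even so, in Sham6w 1 of 7 members passed between MoMF and Mo, against 6.15% of all genes tested, and 1 of 7 between KC and Mo, against 16% of all genes. Both were H2-Eb1, at 1535, 881 and 704 in MoMF, 987, 863, 718 and 809 in KC and 434, 346 and 412 in Mo. H2-Eb1 was higher by 1.31 ± 0.33 in MoMF (adjusted p = 0.00915) and by 1.08 ± 0.31 in KC (adjusted p = 0.00967). The first call was lost without Mo replicate 3+6 (adjusted p = 0.0508) and without MoMF replicate 1+2+5 (0.101), and the second without Mo replicate 3+6 (0.0564). Between KC and MoMF of control livers 0 of 7 passed in limma, against 15.9% of all genes. There 1 member had an unadjusted p under 0.05, and edgeR and DESeq2 called 0.

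Between MoMF and Mo of ligated mice more members passed than in control livers; whether the effects differed between cell types is tested further on. In CBDL2w H2-Eb1 read 1609.9, 1147, 1644 and 1930.0 in MoMF and 238, 241, 289.7 and 259.9 in Mo, so the lowest MoMF library held several times the highest Mo library. Of the 7 members 5 were higher in MoMF than in Mo, against 2.01% of all genes called in either direction: H2-Eb1 by 2.60 ± 0.29 (adjusted p = 7.26e-09), H2-Ab1 by 2.17 ± 0.26 (2.22e-08), Cd74 by 2.14 ± 0.25 (2.22e-08), H2-Aa by 2.04 ± 0.23 (1.51e-08) and Ciita by 1.3 ± 0.32 (0.0157). The median of the 7 members was 2.04 and that of all genes 0.03. H2-DMa (0.94 ± 0.28, adjusted p = 0.0645) and H2-DMb1 (0.99 ± 0.33, 0.13), the chains of the peptide exchanger, did not pass, although edgeR called H2-DMa (0.0412) and DESeq2 both (0.027 and 0.0467). The call of Ciita was lost without MoMF replicate 4 (adjusted p = 0.06), Mo replicate 2 (0.0527) or Mo replicate 4 (0.0566), while those of the 4 abundant genes held without any 1 library.

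In CBDL6w the same 5 members passed between MoMF and Mo, against 2.16% of all genes, with H2-Eb1 higher by 1.96 ± 0.29, H2-Ab1 by 1.53 ± 0.26, H2-Aa by 1.40 ± 0.23, Cd74 by 1.20 ± 0.25 and Ciita by 1.20 ± 0.32. Ciita, the coactivator, read 91, 70.9, 135 and 83.4 in these MoMF libraries and 51.9, 38.6, 24 and 50.5 in Mo. No library of Mo reached the lowest of MoMF. The call of Ciita (adjusted p = 0.0288) was lost without MoMF replicate 1 (0.0596), MoMF replicate 3 (0.133), Mo replicate 2 (0.0667) or Mo replicate 3 (0.151).

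In DSS 4 of 7 passed, against 2.32% of all genes: H2-Eb1 at 1.61 ± 0.29, Cd74 at 1.40 ± 0.25, H2-Ab1 at 1.36 ± 0.26 and H2-Aa at 1.23 ± 0.23. In CBDL+DSS 6 of 7 passed, against 4.29% of all genes. H2-Eb1 was higher by 2.47 ± 0.29 and Cd74, the invariant chain, by 2.33 ± 0.25 (adjusted p = 3.14e-09). Cd74 read 666, 1018, 927 and 1052 in CBDL+DSS MoMF and 76.7, 258, 289 and 175 in Mo, without overlap. Both chains of the peptide exchanger passed here between MoMF and Mo, H2-DMa by 1.16 ± 0.28 (adjusted p = 0.00691) and H2-DMb1 by 1.10 ± 0.33 (0.0401). H2-DMa read 85.5, 97.5, 96.5 and 122 in MoMF and 34.7, 56.3, 47.1 and 40.7 in Mo. The call of H2-DMb1 was lost on leaving out any 1 of 7 libraries, MoMF replicate 1, 2 or 3 or Mo replicate 1, 2, 4+5 or 6 (adjusted p up to 0.129 without MoMF replicate 3). H2-DMb1 has a near-identical neighbour, H2-DMb2, so the split of tags between them is uncertain; H2-DMb2 averaged 2.33 to 13.3 in all 15 groups.

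KC also held more class II message than Mo after ligation. H2-Aa read 1066, 741, 811 and 748 in CBDL2w KC and 247, 384, 358 and 295 in CBDL2w Mo. Of the 7 members 4 passed in CBDL2w (background 14.4%) and in CBDL6w (15.3%), H2-Aa, H2-Ab1, H2-Eb1 and Cd74 in both, and 5 of 7 in CBDL+DSS (14.4%), these 4 and H2-DMa. Among these H2-Eb1 was higher by 1.74 ± 0.29, 1.97 ± 0.29 and 1.58 ± 0.29, and Cd74 by 1.19 ± 0.25, 0.99 ± 0.25 and 1.75 ± 0.25. The call of H2-DMa (0.83 ± 0.28, adjusted p = 0.0356) was lost without KC replicate 1+3 (0.0595), 2 (0.104) or 4+5 (0.123) and without Mo replicate 1 (0.116), 4+5 (0.0546) or 6 (0.0802). In DSS 0 of 7 passed in limma between KC and Mo, against 14.7% of all genes. H2-Eb1 stood at 819.7, 655, 733 and 897 in DSS KC and 467, 397, 512 and 516 in DSS Mo there, a difference of 0.71 ± 0.29. At an unadjusted p under 0.05 there was 1 member, and edgeR and DESeq2 called 0.

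Between the macrophage types every member that passed was lower in KC than in MoMF. In DSS these were 4 of 7, against 13.5% of all genes: Cd74 by -1.05 ± 0.25 (adjusted p = 0.00196), H2-Ab1 by -0.89 ± 0.26 (0.0114), H2-Eb1 by -0.89 ± 0.29 (0.0274) and H2-Aa by -0.77 ± 0.23 (0.0174). Cd74 read 333, 253, 293 and 357 in DSS KC and 600.3, 613, 658 and 680.0 in DSS MoMF. Without MoMF replicate 5+6 only Cd74 passed, with adjusted p = 0.0947 for H2-Aa, 0.0535 for H2-Ab1 and 0.0793 for H2-Eb1. Without KC replicate 2 H2-Aa (0.0549) and H2-Eb1 (0.0829) were lost, and H2-Eb1 also without MoMF replicate 2 (0.0504), MoMF replicate 3 (0.0545) or KC replicate 3 (0.0583). In CBDL2w 2 of 7 passed, against 6.63% of all genes, Cd74 (-0.95 ± 0.25, adjusted p = 0.0109) and Ciita (-1.03 ± 0.32, 0.0372). Ciita was lost there on leaving out any 1 of the 8 libraries other than MoMF replicate 2, up to an adjusted p of 0.121 without MoMF replicate 4, and Cd74 without KC replicate 4 (0.0556). In CBDL6w Ciita alone passed (-1.02 ± 0.32, adjusted p = 0.0313, against 9.66%), with KC libraries at 56.8, 60.1, 16.3 and 71.5 that overlapped those of MoMF. It was lost without KC replicate 3 (0.289), MoMF replicate 1 (0.0591) or MoMF replicate 3 (0.132). In CBDL+DSS H2-Ab1 alone passed (-0.91 ± 0.26, adjusted p = 0.0234, against 4.88%). It was lost without KC replicate 4+5 (0.0598) or 6 (0.0993) or without MoMF replicate 2 (0.103) or 3 (0.074), whereas equal totals, a pseudocount of 5, edgeR and DESeq2 each called 3 members.

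**Figure D2:**
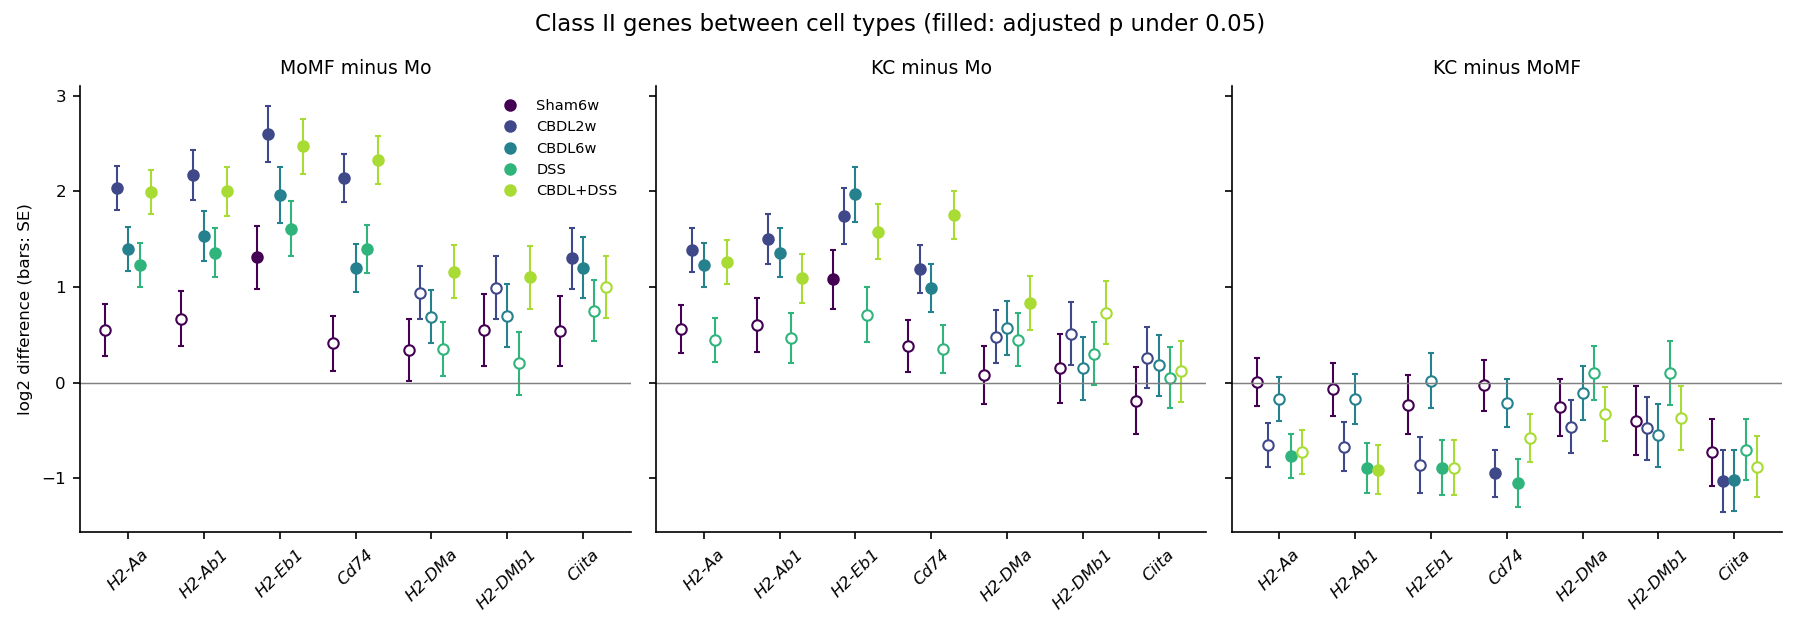
Differences between cell types (log2, bars SE) for each class II gene, with 1 colour per injury group and filled points where the adjusted p is under 0.05. The left panel, MoMF minus Mo, has its highest points for H2-Eb1, at 2.60 in CBDL2w and 2.47 in CBDL+DSS, the middle panel, KC minus Mo, has no filled point in DSS, and the right panel, KC minus MoMF, has filled points below 0 alone.

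Within MoMF, H2-Aa, H2-Ab1, Cd74 and H2-DMb1 had their highest mean in CBDL+DSS, H2-Eb1 in CBDL2w (1583 against 1473 in CBDL+DSS) and H2-DMa and Ciita in CBDL6w (119.6 and 95 against 100.3 and 60.9). H2-Aa read 1345, 1895, 1745 and 1406 in CBDL+DSS and 852, 752 and 675 in Sham6w, and Cd74 read 666, 1018, 927 and 1052 against 490.4, 386 and 347. Neither gene overlapped between the groups. Of the 7 members 3 rose, against 9.8% of all genes called in either direction: Cd74 by 1.16 ± 0.21 (2.23-fold, adjusted p = 0.000932), H2-Aa by 1.06 ± 0.24 (2.09-fold, 0.00534) and H2-Ab1 by 0.92 ± 0.28 (1.89-fold, 0.042). The member median was 0.57 against 0.08 for all genes. H2-Eb1 did not pass (0.57 ± 0.28, adjusted p = 0.202); of its Sham6w libraries, replicate 1+2+5 (1535) stood among the CBDL+DSS values of 1244 to 1706. The rises of Cd74 and H2-Aa held without any 1 library, but no member passed with replicate numbers as a block in the fit. That of H2-Ab1 was lost without Sham6w replicate 3 (adjusted p = 0.0646) or 4+6 (0.109) or CBDL+DSS replicate 1 (0.0649), 2 (0.114) or 3 (0.092). With libraries of single replicate numbers, which leave 1 Sham6w library, none passed, at 1.15 for Cd74 (adjusted p = 0.0508) and 1.13 for H2-Aa (0.112). Mitochondrial transcripts summed to 9048 to 11267 in CBDL+DSS MoMF against 5579.7 to 8877 in Sham6w, and their part in the result was not tested.

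In the other injuries the MoMF values leaned the same way with fewer calls. In CBDL2w Cd74 read 771, 893, 663 and 825, all above Sham6w, and rose by 0.96 ± 0.21 (adjusted p = 0.0105). It was the only member of 7 to pass, against 3.06% of all genes, and missed the threshold where these groups were fitted alone (adjusted p = 0.0509) and with libraries of single replicate numbers (0.128). Classical monocyte markers stood at 1158 to 1407 in these libraries against 233 to 384 in Sham6w MoMF, and their part in the result was not tested. H2-Aa at 1442, 1103, 1406 and 1295 also lay wholly above Sham6w but did not pass (0.79 ± 0.24, adjusted p = 0.0686), except in DESeq2 (0.0237). In DSS 0 of 7 passed in limma and edgeR, against 2.07% of all genes, with Cd74 at 0.66 ± 0.21 (adjusted p = 0.095, and 0.0352 in DESeq2, which called this 1 member) and 3 members at an unadjusted p under 0.05. In CBDL6w 0 of 7 passed in limma, edgeR and DESeq2, against 1.22% of all genes, with 4 members at an unadjusted p under 0.05. Ciita stood highest there, at 0.85 ± 0.30 (adjusted p = 0.172). The CBDL6w libraries were spread widely: H2-Aa read 1124, 638, 1196 and 1619, with replicate 2 below every Sham6w library. Without Sham6w replicate 1+2+5, whose H2-DMa of 144 stood far above 64.1 and 45.2 in the other controls, H2-DMa passed in CBDL2w (1.11, adjusted p = 0.0199), CBDL6w (1.11, 0.0314) and CBDL+DSS (0.87, 0.0493). All 4 comparisons share the same 3 Sham6w libraries. Among the injured groups of MoMF, 0 of 7 members passed in limma and edgeR in CBDL2w against CBDL6w (background 0.0823%), in CBDL+DSS against CBDL6w (4.16%) and in the test of whether colitis acted differently with ligation than without (2.09%). At an unadjusted p under 0.05 there were 2, 3 and 1 members. DESeq2 called 1 of them, Cd74 in CBDL+DSS against CBDL6w (0.63, adjusted p = 0.0137), which limma placed at 0.64 ± 0.19 (0.0585) and called without CBDL+DSS replicate 1 (0.78, 0.0305).

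Monocytes did not share the rise. In CBDL2w Mo H2-Aa read 247, 384, 358 and 295, against 571, 448 and 536 in Sham6w. Cd74 read 151, 179, 218 and 167 against 380.5, 251 and 293. Of the 7 members 0 passed in limma, while 13.8% of all genes did. The differences were -0.70 ± 0.27 for H2-Aa (adjusted p = 0.0919) and -0.70 ± 0.27 for H2-Ab1 (0.0934). They were -0.63 ± 0.32 for H2-Eb1 (0.211) and -0.77 ± 0.31 for Cd74 (0.114). At an unadjusted p under 0.05 there were 3 members, and edgeR and DESeq2 called 0. Where these groups were fitted alone, which takes the spread from 7 libraries, 4 members passed (adjusted p = 0.0232 to 0.0349). In CBDL6w, DSS and CBDL+DSS Mo 0 of 7 passed in limma, edgeR and DESeq2, against 11.2%, 1.59% and 13.1% of all genes, with 0, 1 and 1 members at an unadjusted p under 0.05. The lowest value was Cd74 in CBDL+DSS (-0.77 ± 0.31, adjusted p = 0.114), which passed without CBDL+DSS replicate 4+5 (-1.0, 0.0486). Between injured groups of Mo 0 of 7 passed in these 3 tools, in CBDL2w against CBDL6w (background 0%), CBDL+DSS against CBDL6w (0.573%) and the test of colitis with against without ligation (0.311%), each with 1 member at an unadjusted p under 0.05.

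In Kupffer cells no class II gene passed against the controls in limma. H2-Aa read 869.8, 828, 620.4 and 758 in Sham6w, 1066, 741, 811 and 748 in CBDL2w and 704, 629, 657 and 856 in DSS, all overlapping. In limma 0 of 7 members passed against Sham6w in CBDL2w, CBDL6w, DSS and CBDL+DSS, where 2.71%, 3.25%, 7.89% and 3.31% of all genes did, and 0, 3, 1 and 1 members had an unadjusted p under 0.05. EdgeR called none of them, and DESeq2 called H2-DMa in CBDL6w (0.89, adjusted p = 0.0326) and DSS (0.78, 0.0488). H2-DMa read 61.7, 74, 46.7 and 69.7 in Sham6w KC, 126, 133, 57.6 and 144 in CBDL6w and 86.7, 118, 72.3 and 148 in DSS. In CBDL6w 1 library decided the calls: replicate 3 was the lowest of its group for all 7 members, with H2-Eb1 at 657 against 1372, 1349 and 1962 in the others. Without it H2-DMa (1.10, adjusted p = 0.00836), H2-Eb1 (0.87, 0.0138) and H2-Ab1 (0.72, 0.0187) passed. Between injured groups of KC, 0 of 7 passed in limma in CBDL2w against CBDL6w (background 0%), CBDL+DSS against CBDL6w (1.74%) and the test of colitis with against without ligation (6.02%), each with 1 member at an unadjusted p under 0.05. In that last test H2-DMa stood at -1.17 ± 0.37 (adjusted p = 0.0643). It passed in edgeR (0.0393), DESeq2 (0.0124) and with equal totals (0.0482), and without CBDL6w replicate 3 (0.00821) or DSS replicate 3 (0.0409). Without CBDL6w replicate 3 Ciita passed as well (-1.44, adjusted p = 0.0394). In CBDL+DSS against CBDL6w DESeq2 called H2-Eb1 (-0.75, adjusted p = 0.0426), which limma called without CBDL6w replicate 3 (-0.96, 0.0191), and edgeR called 0. In CBDL2w against CBDL6w edgeR and DESeq2 called 0.

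**Figure D3:**
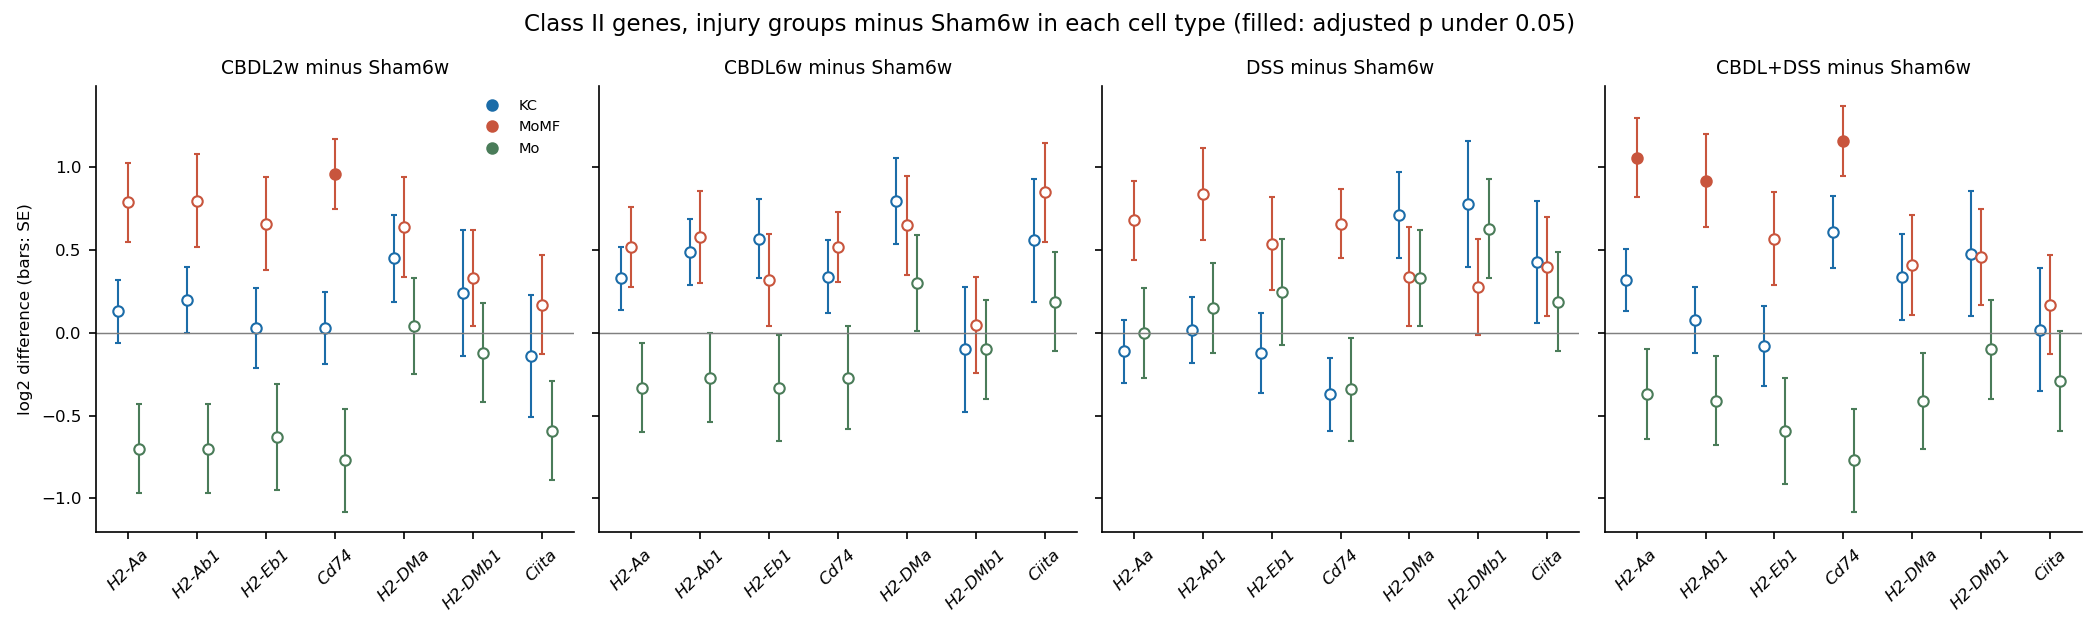
Differences of each injury group from Sham6w (log2, bars SE) for the 7 class II genes, with 1 colour per cell type and filled points where the adjusted p is under 0.05. Filled points appear in MoMF alone, for Cd74 in CBDL2w (0.96) and for Cd74, H2-Aa and H2-Ab1 in CBDL+DSS (1.16, 1.06 and 0.92).

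Whether the cell types differed in their response was tested directly. In CBDL2w the effect against Sham6w was more positive in MoMF than in Mo for 3 of 7 members, against 1.38% of all genes: Cd74 by 1.73 ± 0.38 (adjusted p = 0.00981), H2-Ab1 by 1.5 ± 0.39 (0.0328) and H2-Aa by 1.49 ± 0.36 (0.0186). The median of all genes in this test was 0.18. In CBDL+DSS it was more positive for 2 of 7, against 2.12%: Cd74 by 1.93 ± 0.38 (adjusted p = 0.00302) and H2-Aa by 1.44 ± 0.36 (0.0171), with a median of 0.17 for all genes. Cd74 kept its call in both without any 1 library, but with libraries of single replicate numbers, which leave 1 MoMF Sham6w library, no member passed (Cd74 at an adjusted p of 0.257 and 0.139). H2-Aa in CBDL2w was lost without Mo Sham6w replicate 1+2+5 (adjusted p = 0.0546), and H2-Ab1 without any 1 of 9 libraries (adjusted p = 0.053 to 0.0934). These were the 3 of Mo Sham6w, MoMF Sham6w replicate 4+6, MoMF CBDL2w replicates 1, 3 and 4 and Mo CBDL2w replicates 1 and 4. For H2-Aa the means behind the CBDL2w test were 1312 against 759 in MoMF and 321 against 518 in Mo. The 3 Sham6w libraries of each cell type enter both tests. In CBDL6w the difference between MoMF and Mo did not pass for any of 7 (background 0.649%), nor in DSS (0.0397%), with 3 and 1 members at an unadjusted p under 0.05 and 0 called by edgeR and DESeq2.

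The response of KC was not separated from either. Against MoMF, 0 of 7 differences in effect passed in CBDL2w (background 0.344%), CBDL6w (0.397%), DSS (0.86%) and CBDL+DSS (1.99%), with 1, 0, 3 and 2 members at an unadjusted p under 0.05. Against Mo, 0 of 7 passed in CBDL2w (1.67%), CBDL6w (1.58%), DSS (0.238%) and CBDL+DSS (0.821%), with 3, 2, 0 and 2 members. EdgeR called 0 in each of the 8, and DESeq2 called Cd74 in CBDL+DSS between KC and Mo (1.27, adjusted p = 0.0401). Limma placed it at 1.38 ± 0.37 (adjusted p = 0.0501) and called it with a pseudocount of 5 (0.0235), with equal totals (0.0436) and without KC Sham6w replicate 2 (0.0441), KC CBDL+DSS replicate 6 (0.0325), Mo CBDL+DSS replicate 2 (0.0323) or Mo CBDL+DSS replicate 4+5 (0.0204).

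Other cells that carry class II were followed by their markers. Summed markers of conventional dendritic cells stood at 47.8 to 70 in CBDL+DSS MoMF, where H2-Aa and Cd74 were highest, against 93.4 to 114 in Sham6w MoMF, 89.4 to 110.3 in CBDL2w, 64.3 to 101 in DSS and 104 to 294 in CBDL6w. Of the 12 dendritic markers Clec10a, which macrophages also express, had the highest mean in every MoMF group, Ccr7 was at 0 in CBDL+DSS MoMF, and Flt3, a receptor of dendritic precursors, averaged 0.873 in CBDL+DSS MoMF against 8.32 in Sham6w. Of the 10 B cell markers, Cd79a, Ms4a1, Pax5 and Fcmr were at 0 in every library of CBDL2w and CBDL+DSS MoMF, and the sum over the list was 7.84 to 14.5 and 8.27 to 34.7, against 29.7 to 178 in Sham6w. Cd22 went the other way, at 0 in Sham6w MoMF and on average 1.4 in CBDL2w and 5.44 in CBDL+DSS. Ighm was still present, at 8.15 in CBDL2w and 12 in CBDL+DSS against 56.4 in Sham6w. In CBDL+DSS MoMF the dendritic sum lay below every control library, and the B cell sum was lower with an overlap of the ranges. General macrophage markers stood at 1049 to 1352 there against 659 to 835 in Sham6w, and their part in the result was not tested. In Mo the dendritic sum was 72.7 to 91.8 in Sham6w, 11.7 to 26.4 in CBDL2w, 16.6 to 32.3 in CBDL6w and 16.4 to 43.1 in CBDL+DSS. The liver endothelial sum was 867 to 1444, 131 to 234, 101 to 162 and 164 to 218 in the same groups. Plasmacytoid dendritic cell markers summed to 530.0 to 709.9, 114 to 180.4, 183 to 219.9 and 98.7 to 242 in these groups. B cell markers summed to 28 to 59.2, 3.52 to 13.1, 10.4 to 17.3 and 4.63 to 11.7. All these sums were lower in each of the ligated groups than in Sham6w. The mean share of class II genes (all members but Ciita) in the total was 0.571% in Sham6w Mo, 0.355% in CBDL2w, 0.506% in CBDL6w and 0.426% in CBDL+DSS. The part of these other cells in the class II values of Mo was not tested. In DSS MoMF endothelial markers stood at 507 to 569, above all other MoMF libraries (89.1 to 248).

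**Figure D4:**
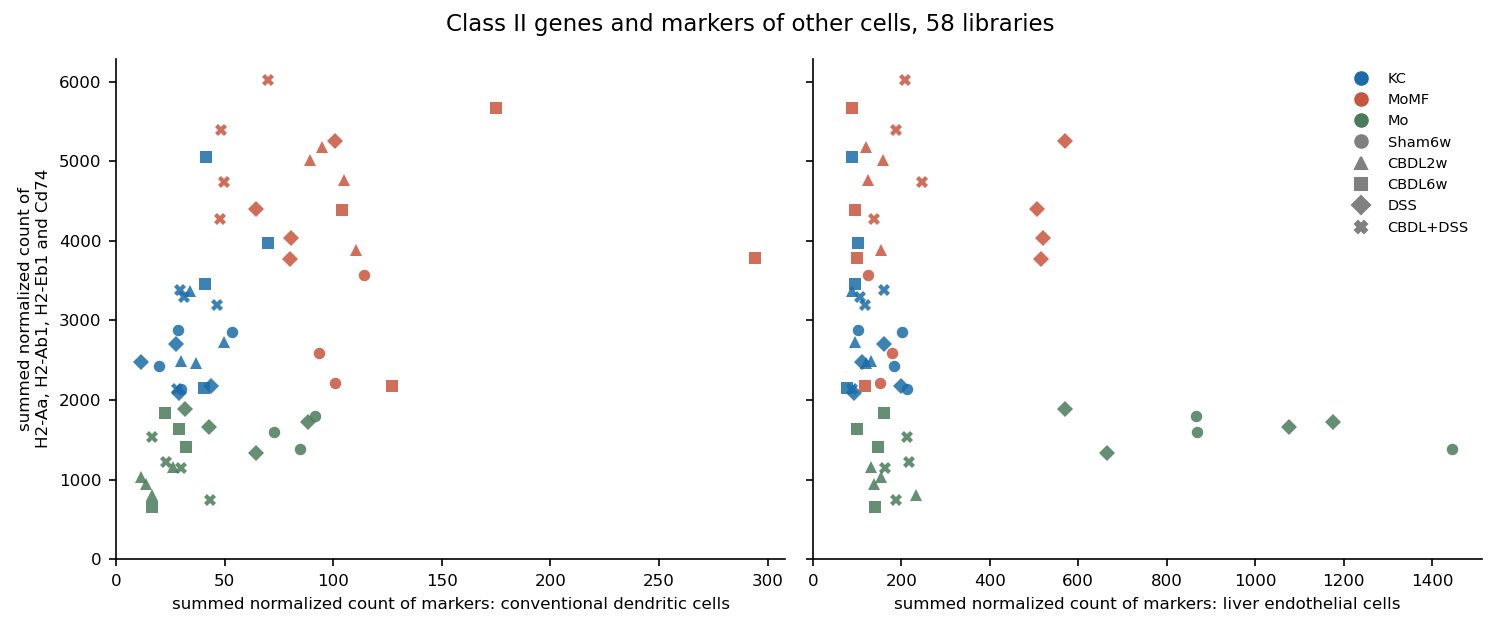
Summed normalized count of H2-Aa, H2-Ab1, H2-Eb1 and Cd74 (vertical axis) against that of 12 conventional dendritic cell markers (left) and 12 liver endothelial cell markers (right) in 58 libraries, coloured by cell type and shaped by injury group. CBDL+DSS MoMF stands high with a dendritic sum of 47.8 to 70, and Mo splits in the right panel into Sham6w and DSS libraries at 571 to 1444 and ligated groups at 101 to 234.

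The pathway around the members moved in other patterns. Of 8 genes of peptide supply and invariant chain processing, 5 rose and 0 fell in CBDL+DSS MoMF against Sham6w (median 1.18, against 0.08 for all genes, of which 9.8% passed). Against CBDL6w 5 rose as well (median 0.96, against 0.03 for all genes, of which 4.16% passed). Legumain (Lgmn), an asparagine-specific lysosomal protease, read 229, 279, 211 and 196 in CBDL+DSS MoMF against 34.7, 102 and 75.6 in Sham6w, a rise of 1.80 ± 0.35 (adjusted p = 0.00225). Cathepsin D (Ctsd), an aspartic protease, rose by 1.80 ± 0.31 (adjusted p = 0.000626), from 39.6, 50 and 45.2 to 202, 155, 148 and 134. Cathepsin S (Ctss), which trims the invariant chain, rose by 0.66 ± 0.17 in CBDL2w MoMF (adjusted p = 0.0332) and in Mo of the 3 ligated groups, by 0.62 ± 0.15, 0.62 ± 0.15 and 0.70 ± 0.15, where no class II gene passed. In DSS KC 4 of the 8 fell, among them Ctsb by -1.04 ± 0.14 (adjusted p = 0.000102), and 0 rose, where 7.89% of all genes passed. KC of control livers held 7 of the 8 above MoMF, where 15.9% of all genes passed, and Lgmn in KC stood at 205, 249, 241 and 201, although the class II members did not pass between these groups. H2-Ob, the beta chain of the H2-DM inhibitor H2-O, was low throughout and read 24.9, 10.6, 21.6 and 22.7 in CBDL6w MoMF against 2.64, 2.69, 0 and 0 in CBDL6w KC (adjusted p = 0.000327) and 0.919, 3.55, 0 and 7.22 in CBDL+DSS MoMF (adjusted p = 0.0182).

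Upstream of Ciita, Irf1, an interferon-induced factor that acts on the Ciita promoter, read 188, 229.5, 88.9 and 196 in DSS MoMF and 61.9, 36.9 and 48.1 in Sham6w, a rise of 1.77 ± 0.33 (adjusted p = 0.011). In DSS KC it rose by 0.86 ± 0.26 (adjusted p = 0.0467), while Ifngr1, a chain of the interferon-gamma receptor, fell by -1.35 ± 0.23 (0.00125), so that 1 of 7 genes of the list rose and 1 fell there, against 7.89% of all genes. In the same DSS MoMF libraries Ciita read 55.6, 55.4, 79.4 and 83.4 against 59.4, 39.1 and 56 in Sham6w. In CBDL+DSS MoMF, with the highest H2-Aa, Irf1 stood at 57.9, 47.9, 102 and 70.6, overlapping the controls, and no gene of the interferon-gamma list passed there in limma (7 tested). In CBDL2w Mo 3 of these 7 fell, against 13.8% of all genes, Irf1 by -1.81 ± 0.38 (adjusted p = 0.00234), Irf8 by -1.04 ± 0.28 (0.0158) and Jak1 by -0.86 ± 0.19 (0.00361). Irf1 read 37.7, 36, 48.4 and 36.8 in these libraries against 117, 167 and 142 in Sham6w Mo. Irf1 also fell in CBDL2w KC, by -1.05 ± 0.26 (adjusted p = 0.0295), Jak1 in CBDL6w Mo by -0.86 ± 0.19 (0.00481), and Irf8 and Jak1 in CBDL+DSS Mo by -1.27 ± 0.28 (0.00513) and -0.82 ± 0.19 (0.00677), where no class II member passed. Among the RFX, NF-Y and Creb1 genes, whose proteins occupy the X and Y boxes, 0 passed in any comparison of injury groups within a cell type in limma (3 of 7 were tested in KC and 4 in MoMF and Mo). Cd86, which encodes a costimulatory ligand for T cells, fell in CBDL6w KC by -1.18 ± 0.33 (adjusted p = 0.0469), from 34.5 ± 9.04 to 15.1 ± 5.14.

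**Figure D5:**
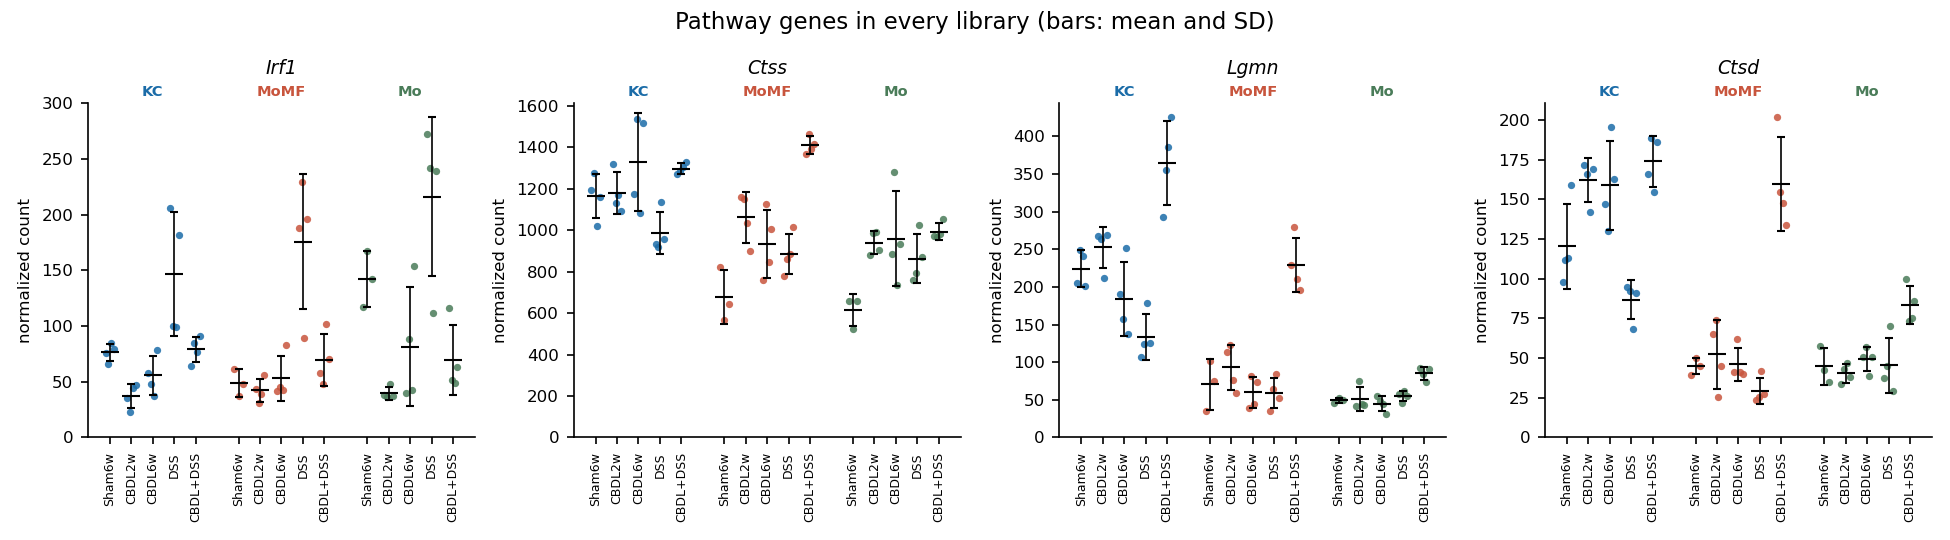
Normalized counts of Irf1, Ctss, Lgmn and Ctsd (vertical axes, linear from 0) in each library, with group means and SDs. Irf1 in MoMF is highest in DSS (88.9 to 229.5 against 36.9 to 61.9 in Sham6w), while Lgmn (196 to 279) and Ctsd (134 to 202) in MoMF are highest in CBDL+DSS.

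The members varied together. Over the 15 group means, H2-Aa and H2-Ab1 each correlated at r = 0.99 with the mean of the other genes among H2-Aa, H2-Ab1, H2-Eb1 and Cd74, H2-Eb1 at 0.97 and Cd74 at 0.95, and H2-DMa, H2-DMb1 and Ciita correlated with the mean of those 4 at 0.81, 0.75 and 0.70. Within groups, over the deviations of 58 libraries from their group means, the values were 0.91, 0.90, 0.86, 0.70, 0.64, 0.58 and 0.48 in the order H2-Aa, H2-Ab1, H2-Eb1, Cd74, H2-DMa, H2-DMb1, Ciita. All points of a library share its depth and scaling, and no test was made. In 10 of 15 groups 1 library was the lowest in H2-Aa, H2-Ab1, H2-Eb1 and Cd74 alike. Of these 10 libraries 5 held the highest mitochondrial sum of their group and 2 the lowest, and 3 held the highest Kupffer marker sum. The 3 from CBDL6w were KC replicate 3, MoMF replicate 2 and Mo replicate 3. Kupffer markers stood at 1229, 496 and 228 in these 3 libraries, against 607 to 1302, 85 to 195 and 21.5 to 128 in the others of their groups. They also held the highest mitochondrial sums of their groups, 13776, 7678 and 7774, against 6726 to 9227, 4537 to 4991 and 5119 to 6695 in the others. Across all 58 deviations class II ran at r = -0.37 with the mitochondrial sum and at -0.50 with Kupffer markers, the lowest values of all the marker lists. Over the 15 group means the same sums stood at -0.07 and 0.22.

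Of 2519 other genes with a mean of at least 20, those closest to the 4 abundant members over the 15 group means were Clec4b1, a C-type lectin receptor (r = 0.89), Tmem176a (0.84), Ggta1 (0.79), Fgd2 (0.78), Ywhah (0.77) and Abcg1 (0.77). Over the 58 deviations they were Snrpb (0.62), Tmem176b (0.61), Ifi47 (0.58), Fcer1g (0.57), Rpl10-ps3 (0.54) and Fam168b (0.53). Rpl10-ps3 is a pseudogene close in sequence to Rpl10, so its tags are uncertain.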

How the data were processed

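RNA of KC, MoMF and Mo was sequenced as 3' tags with molecular identifiers (QuantSeq FWD), per the labels' protocols. Reads were handled with STAR 2.7.5b, RSEM 1.3.1, Trimmomatic (0.39 and 0.39-1), UMI-tools 1.0.1 and DESeq2 on GRCm38.p6, per the submitters' processing notes, which give no order. The deposited signal is normalized counts, gene counts divided by 1 size factor per library. Dividing by the smallest step returned whole reads for 100% of values within 0.01, and these served edgeR 4.0.16 and DESeq2 1.42.0. Of 25307 gene identifiers 25272 matched GENCODE M21.

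Limma 3.58.1 (R 4.3.3, trend and robust) was fitted to log2(normalized count + 1) for genes at 10 or more in at least 3 libraries, per cell type (6159 genes in KC, 6079 in MoMF, 6112 in Mo) for injuries and over all 58 libraries (7555 genes) for cell types and differences in effect. A fold is on that scale and understates the change of low genes. Adjusted p-values are Benjamini-Hochberg values over all genes of a fit, in 48 comparisons. The fits were tested on simulated data. Other settings were a pseudocount of 5, no filter, equal totals, edgeR, DESeq2, the replicate block, libraries with single replicate numbers, fits of the compared groups alone and leaving out each library.

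The members and gene lists were chosen with earlier results of these data known. All 7 members are named; further genes are named where they passed in a fixed list (at most 3 per list and comparison) or had the closest pattern. Genes given with every library's value, among them Irf1, Lgmn, Ctsd, Ctss and H2-Ob, were chosen after their values were seen. Intervals of counting error were not computed, since replicates give the spread.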

Additional observations from a re-analysis of the deposited data

Results flagged for a closer look

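In 91 groups of 4 libraries, 1 gene in 1 group each, 3 had a library whose gap to its neighbour took most of the range of the group, where chance gives about 1 in 20. H2-Aa in CBDL+DSS KC stood at 759 in replicate 6, against 1018 to 1044 in the others. Cd74 in CBDL6w MoMF stood at 389 in replicate 2, and Ciita in Sham6w KC at 19.4 in replicate 2. The first 2 of these libraries were also the lowest of their groups in H2-Ab1 and H2-Eb1.

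The effect of injury against Sham6w differed between MoMF and Mo in limma's test of the difference. In CBDL2w it was higher in MoMF by 1.73 for Cd74, 1.5 for H2-Ab1 and 1.49 for H2-Aa on the log2 scale. In CBDL+DSS it was higher by 1.93 for Cd74 and 1.44 for H2-Aa.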

How the results depend on the processing

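Of 52 calls of a member over 48 comparisons, limma with a pseudocount of 5, with equal totals and DESeq2 each kept 52, edgeR kept 51, no filter on low values 45, the replicate block 46 and libraries with single replicate numbers 34, and no call turned its direction under any setting. DESeq2 called 1 member in CBDL6w and in DSS KC against Sham6w, in CBDL+DSS against CBDL6w KC, in the KC test of colitis with against without ligation, in DSS MoMF, in CBDL+DSS against CBDL6w MoMF and in the CBDL+DSS effect of KC against Mo, where limma called 0. It called 2 in CBDL2w MoMF, where limma called 1, and 3 between KC and MoMF in CBDL+DSS. EdgeR called 1 in that KC test, 3 between KC and MoMF in CBDL+DSS and 4 in CBDL2w. Equal totals gave 1, and 3, for the first of these comparisons and the second, and 1 for the CBDL+DSS effect of KC against Mo, as did a pseudocount of 5, which also gave 3 between KC and MoMF in CBDL+DSS. No filter gave 0 between KC and MoMF in CBDL6w and 1 in CBDL2w. Fits of the compared groups alone gave 0 in CBDL2w MoMF, between KC and MoMF in CBDL6w and between MoMF and Mo in Sham6w, 2 between KC and Mo in DSS, 3 between KC and Mo in Sham6w and between KC and MoMF in CBDL+DSS, 4 in CBDL2w Mo and 5 between KC and MoMF in CBDL2w. Libraries with single replicate numbers, which leave 1 of MoMF Sham6w, gave 0 in CBDL2w and CBDL+DSS MoMF, between KC and Mo and MoMF and Mo in Sham6w, between KC and MoMF in CBDL+DSS and in the CBDL2w and CBDL+DSS effects of MoMF against Mo, 1 between KC and MoMF in DSS and 3 between KC and Mo in CBDL+DSS; fewer samples enter there. The cause of the other changes was not tested.

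Libraries of the same replicate number were weakly correlated. None of 45 correlations between cell types of an injury group was over 0.1 (highest 0.10). Between injury groups of a cell type none of 72 was (highest 0.07). Between cell types the median for the same number still lay above that for other numbers in every pair. For MoMF and Mo in CBDL2w these were 0.06 and -0.02. Whether libraries of 1 number share animals cannot be decided from such low values. The cell type tests took these libraries as independent. With the replicate block, 0 members passed in CBDL2w MoMF (Cd74, adjusted p = 0.237) and in CBDL+DSS MoMF (Cd74, 0.102), 1 in the CBDL+DSS effect of MoMF against Mo, 1 between KC and Mo in DSS, 2 between KC and MoMF in CBDL+DSS and 4 in CBDL2w.

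Leaving out 1 library moved the count of members called between 0 and 3 in CBDL6w KC and between KC and MoMF in CBDL2w, between 0 and 2 in the KC test of colitis with against without ligation, between 1 and 2 in CBDL2w MoMF, between 1 and 4 between KC and MoMF in DSS and between 1 and 3 in the CBDL2w effect of MoMF against Mo. It moved between 0 and 1 in CBDL+DSS against CBDL6w in KC and in MoMF, CBDL6w MoMF, CBDL+DSS Mo, KC against Mo and MoMF against Mo in Sham6w, KC against MoMF in CBDL6w and in CBDL+DSS and the CBDL+DSS effect of KC against Mo. Where a Sham6w group of 3 lost a library, 2 remained. The shallowest library held 118687 reads, and Ciita and H2-DMb1 rested on as few as 17 and 13 reads.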

Other observations

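The transcripts of H2-Eb1 and H2-Aa did not keep 1 ratio, a description chosen after the values were seen. H2-Eb1 over H2-Aa was 1.54, 1.3, 1 and 1.38 in CBDL6w KC and 0.979, 0.868, 0.85 and 0.657 in CBDL+DSS KC, without overlap. In MoMF it was 1.33, 1.06, 0.965 and 1.2 in CBDL6w and 0.925, 0.9, 0.857 and 1.03 in CBDL+DSS, with an overlap. In Sham6w it was 1.13, 1.04, 1.16 and 1.07 in KC, 1.8, 1.17 and 1.04 in MoMF and 0.761, 0.774 and 0.768 in Mo.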
